A study of Mus musculus with 8 samples.

Results

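The expression of 44 interferon-stimulated genes was examined in immortalized mouse embryonic fibroblasts (MEFs). They were taken by symbol from a fixed list, and all 44 were among the 55401 genes of the count table. The list was chosen with earlier results of these data known. Shares of members set beside shares of all genes are therefore descriptions, not tests of the list. The MEFs came from E14.5 embryos of the strain B6C3F1, with 4 SLMAP3-/- and 4 WT lines and 1 library per line. SLMAP3-/- lines lack exon 3 of Slmap, which was floxed and removed by a Cre transgene under the CMV promoter, and WT lines are wild type at this gene. Both genotypes share the transfection with SV40 large T antigen that made the lines immortal. No interferon or other stimulus is named in the labels, and the levels are taken to be those of untreated cultures. The question is how far these genes were on in each line, how they moved together, and whether SLMAP3-/- and WT MEFs differed in them.

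Interferons are secreted proteins that bind receptors on the same or neighbouring cells and activate the kinases JAK1, TYK2 and JAK2. The kinases phosphorylate STAT2, which enters the complex ISGF3 with IRF9, and this complex binds the interferon-stimulated response element (ISRE) in the promoters of its targets. A different element, the gamma-activated site (GAS), is used mainly by type II interferon. Many of the components, among them Stat2, Irf9 and Irf7, are themselves targets, so that the pathway feeds back on itself. Fibroblasts are a classical source and target of type I interferon, and keep a low level of these genes without stimulation.

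The promoters of 7 members are shown because they carry the elements through which this group is known to be switched on, or lack their letters near the start. The sequences are from RefSeq on GRCm38.p6, read 5′ to 3′ on the strand of the gene, and end at the base before the annotated start. Capitals mark matches to the ISRE core, TTTCNNTTTC or its reverse complement GAAANNGAAA, and to the GAS core, TTCNNNGAA, which is its own reverse complement. Isg15 encodes the ubiquitin-like ISG15 protein and holds 3 overlapping ISRE matches (chr4:156200819-156200968, minus strand).
Isg15: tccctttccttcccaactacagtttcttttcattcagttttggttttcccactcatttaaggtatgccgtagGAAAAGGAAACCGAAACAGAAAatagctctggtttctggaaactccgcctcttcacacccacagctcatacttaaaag
Ifit1, Ifit3 and Ifit3b, which lie in 1 cluster on chromosome 19 and encode RNA-binding IFIT proteins, hold 2 ISRE matches each (chr19:34640739-34640888, chr19:34583329-34583528 and chr19:34607757-34607956, plus strand).
Ifit1: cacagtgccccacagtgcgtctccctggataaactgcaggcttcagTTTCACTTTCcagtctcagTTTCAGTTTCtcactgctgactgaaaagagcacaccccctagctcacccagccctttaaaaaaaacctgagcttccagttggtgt
Ifit3: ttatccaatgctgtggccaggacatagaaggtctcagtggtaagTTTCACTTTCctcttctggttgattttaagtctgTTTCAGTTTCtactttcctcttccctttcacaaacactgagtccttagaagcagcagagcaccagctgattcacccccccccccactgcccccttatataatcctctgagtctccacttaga
Ifit3b: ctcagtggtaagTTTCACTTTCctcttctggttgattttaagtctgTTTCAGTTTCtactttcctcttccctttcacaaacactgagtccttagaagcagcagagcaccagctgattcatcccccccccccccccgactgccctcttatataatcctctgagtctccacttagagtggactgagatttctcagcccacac
Irf1 and Psmb8 hold a GAS match and no ISRE match (chr11:53769864-53770013 and chr17:34198045-34198194, plus strand), and for Irf1 the first of 2 annotated starts is shown.
Irf1: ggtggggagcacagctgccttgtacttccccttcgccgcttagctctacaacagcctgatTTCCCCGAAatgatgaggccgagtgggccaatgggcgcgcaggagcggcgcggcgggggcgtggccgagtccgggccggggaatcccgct
Psmb8: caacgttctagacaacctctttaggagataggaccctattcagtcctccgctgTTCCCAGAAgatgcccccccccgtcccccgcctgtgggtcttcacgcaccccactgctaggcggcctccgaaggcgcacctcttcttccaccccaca
Irf7, which encodes the transcription factor that amplifies type I interferon production, holds neither match in the 150 bases shown (chr7:141266425-141266574, minus strand).
Irf7: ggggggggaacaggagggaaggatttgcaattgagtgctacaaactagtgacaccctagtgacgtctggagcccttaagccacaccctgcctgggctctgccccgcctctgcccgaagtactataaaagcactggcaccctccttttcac
The ISRE matches of Ifit3 begin 156 and 122 bases before its start, and those of Ifit3b begin 188 and 154 bases before it, with the same letters in both genes. A RefSeq promoter was found for 34 of the 44 members. Within 250 bases before a start, 14 of these 34 (41.2%) held an ISRE match, against 3.06% of the 10984 tested genes with a promoter. A GAS match was held by 8 of 34 (23.5%), against 7.11% of the tested genes. In the member windows 1 ISRE match overlapped a GAS match. These are matches of letters, not sites shown to be bound.

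The 8 libraries were pooled in 1 sequencing run, and their total estimated counts ran from 49879059 to 63322486. Levels are given as CPM, estimated counts scaled to the size of the library after TMM normalization. Slmap was at 44.3, 32.7, 36.3 and 39.7 CPM in SLMAP3-/- lines 1 to 4 and at 124, 139, 143 and 140.6 CPM in the WT lines, as the labels give. It was the only gene of 15461 tested that passed an adjusted p of 0.05 in edgeR's quasi-likelihood test (log2 fold change -1.84 ± 0.11 SE, adjusted p = 0.00119). Fibroblast markers were detected in every line at unlike levels. Col1a1 was between 4508 and 7010 CPM, Pdgfra between 17.4 and 178.7 CPM and Thy1 between 26.2 and 204.3 CPM, and Dcn and Lum were under 19 CPM. The summed level of 12 leukocyte markers was 5.78 to 10.49 CPM, and Tyrobp was at 0 and Adgre1 and Ptprc at or under 0.18 CPM. Cd14 and Cd68, also among these 12, were at 1.91 to 5.30 CPM. The summed level of 5 neural markers was 86.0 to 276.8 CPM, with Map2 at 58.7 to 251.5 CPM and Gfap at or under 0.145 CPM. Among 6 endothelial markers, Pecam1 and Cdh5 stayed at or under 0.23 CPM, while Kdr and Tek were at 1.55 to 28.4 CPM. In bulk RNA, fewer expressing cells and less RNA per cell cannot be told apart.

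The interferon-stimulated genes differed several-fold between lines, and lines of both genotypes were found at either end. The summed level of the 44 genes was 1016, 1632, 2112 and 2536 CPM in SLMAP3-/- lines 1 to 4 and 756.1, 1044, 2948 and 3397 CPM in WT lines 1 to 4. WT line 4 was therefore 4.49-fold above WT line 1, with the 4 SLMAP3-/- lines between WT lines 1 and 3 (1824 ± 653 CPM, SD, n = 4, against 2036 ± 1330 CPM in WT, n = 4). WT line 4 had the highest level for 29 of the 44 genes and SLMAP3-/- line 4 for 10. WT line 1 had the lowest level for 32 genes and SLMAP3-/- line 1 for 7. All 44 genes passed the filter on low counts, with mean levels from 0.694 CPM (Oas3) to 248.6 CPM (Ifitm3) and a median of 27.8 CPM. Among the 43 genes with over 3 counts in their lowest line, the highest line exceeded the lowest by 1.61-fold (Irf1) to 46-fold (Oas2), with a median of 8.57-fold, and 19 exceeded 10-fold. The standard deviation of log2 CPM over the 8 lines was above 1 for 27 of the 44 genes (61.4%), against 8.57% of all tested genes, and its median was 1.16 against 0.27.

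**Figure D1:**
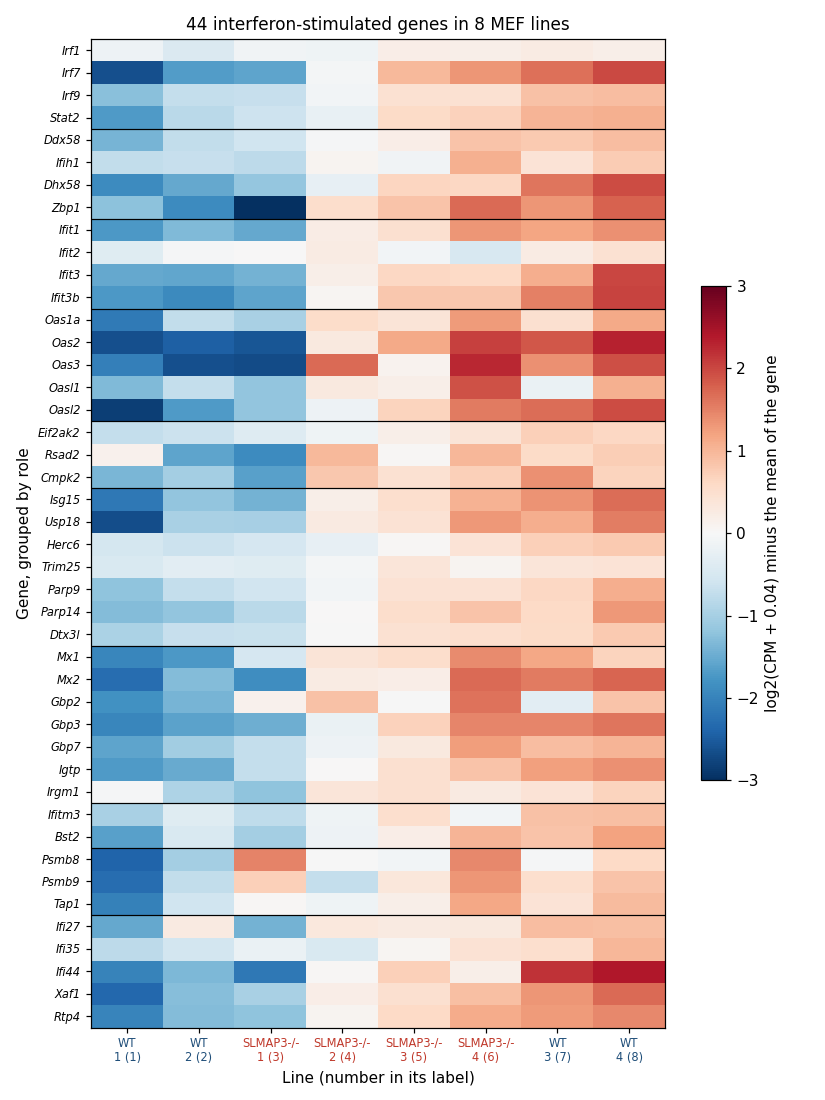
Heat map of the 44 interferon-stimulated genes (rows, in blocks by role) in the 8 lines (columns, ordered by the number in the label of each line, red text SLMAP3-/-, blue text WT). Colour is log2(CPM + 0.04) minus the mean of the gene, so red is above and blue below that mean, and WT lines 1 and 2 and SLMAP3-/- line 1 are blue and WT lines 3 and 4 red for most genes, with Ifit2 and Psmb8 among the exceptions.

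Of the 4 transcription factors on the list, the ISGF3 subunits Stat2 and Irf9 and the amplifier Irf7 followed this order closely. Stat2 was at 69.9, 91.1, 160 and 171.8 CPM in SLMAP3-/- lines 1 to 4 and at 32.9, 60.9, 214.7 and 223.7 CPM in the WT lines. Irf9 was at 38.5, 58.7, 84.5 and 85.6 CPM in SLMAP3-/- lines and at 25.9, 37.6, 114.2 and 118 CPM in WT lines. Irf7 had the widest range of the factors, with 5.78, 16.8, 34.1 and 43.7 CPM in SLMAP3-/- lines and 2.77, 5.46, 55.1 and 69.1 CPM in WT lines. In each of these genes WT lines 1 and 2 lay below and WT lines 3 and 4 above all 4 SLMAP3-/- lines, so the genotypes overlapped completely. Irf1, a factor that responds early to interferon, had a narrow range of 1.61-fold. It was at 37.4, 36.6, 46.4 and 45.1 CPM in SLMAP3-/- lines and 36.4, 29.7, 47.9 and 45.7 CPM in WT lines. Within this range it was highest in SLMAP3-/- lines 3 and 4 and WT lines 3 and 4. Its log2 CPM correlated at 0.82 with the mean of the other members over the 8 lines. The log2 fold changes of SLMAP3-/- over WT were -0.11 ± 0.60 (SE) for Stat2, -0.15 ± 0.50 for Irf9, -0.40 ± 0.99 for Irf7 and 0.05 ± 0.17 for Irf1, and none passed the test (adjusted p = 1 in edgeR).

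**Figure D2:**
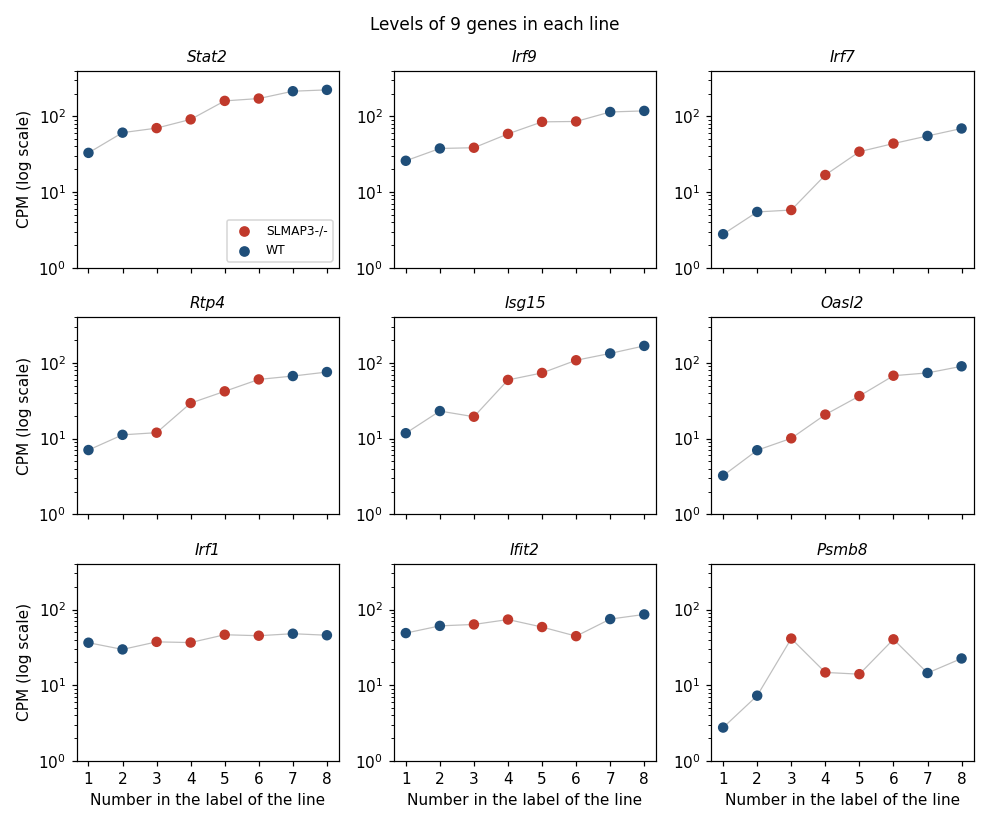
Level of 9 genes in each line (vertical axis, CPM on a log scale) against the number in the label of the line (horizontal axis), with SLMAP3-/- lines in red and WT lines in blue, 1 point per line. Stat2, Irf9, Irf7, Rtp4 and Oasl2 are higher at each step from number 1 to number 8. Irf1 and Ifit2 cover a narrow range, with Irf1 higher at the upper numbers, and Psmb8 is highest in SLMAP3-/- lines 1 and 4.

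The receptors that sense foreign nucleic acid inside the cell covered a wide range of levels. Ddx58, which encodes RIG-I, and Ifih1, which encodes MDA5, detect viral RNA and were the more abundant, at 37.4 to 189 CPM and 18.9 to 67.8 CPM over the 8 lines. Dhx58 encodes their regulator LGP2 and was at 3.50, 6.60, 12.3 and 12.1 CPM in SLMAP3-/- lines and at 2.08, 2.65, 23.8 and 30.3 CPM in WT lines. Zbp1, a sensor of Z-form nucleic acid that can trigger necroptosis, was at 0.139, 2.12, 2.67 and 4.83 CPM in SLMAP3-/- lines and at 0.597, 0.368, 3.69 and 5.07 CPM in WT lines. SLMAP3-/- line 1 was the lowest of all lines for Zbp1, with 8 estimated counts, whereas WT line 1 was the lowest for Dhx58 and Ddx58. The genotypes overlapped in all 4 sensors.

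Among the IFIT genes, whose proteins bind viral RNA and block its translation, Ifit1 and the pair Ifit3 and Ifit3b followed the common order and Ifit2 did not. Ifit1 was at 18.7, 62.8, 75.5 and 135.5 CPM in SLMAP3-/- lines and at 16.3, 21.6, 122.7 and 139.3 CPM in WT lines. Ifit3 was at 10.8, 32.7, 44.3 and 43.8 CPM in SLMAP3-/- lines and at 9.97, 9.66, 61.3 and 115 CPM in WT lines. Ifit3b was at 3.22, 10.2, 17.1 and 17.2 CPM in SLMAP3-/- lines and at 2.92, 2.57, 28.1 and 40.3 CPM in WT lines. WT line 4 stood highest for all 3. Ifit3 and Ifit3b share 61.8% and 54.1% of their 31-base stretches with each other in GENCODE M21, so the split of reads between them is uncertain. Ifit2 was at 63.5, 73.7, 58.7 and 44.5 CPM in SLMAP3-/- lines and at 48.8, 60.8, 74.7 and 86.1 CPM in WT lines, a 1.94-fold range in which SLMAP3-/- line 4, high for most other members, was the lowest. No ISRE match lay within 250 bases before either annotated start of Ifit2, and a GAS match lay before the first. Irf7, Oasl2 and Xaf1, which followed the common order, and Psmb8, which did not, also held no ISRE match there. Isg15 held ISRE matches and followed the order, while Gbp2, Irgm1 and Rsad2 held them and departed from it. A part of these matches in the levels was not tested.

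Oas2 and Oas3 had the highest standard deviations of log2 CPM of the members, 2.23 and 2.18. The proteins OAS1A, OAS2 and OAS3 make the short oligoadenylates that activate RNase L, while OASL1 does not. Oas2 was at 0.087, 0.881, 1.61 and 3.07 CPM in SLMAP3-/- lines and at 0.081, 0.097, 2.69 and 3.71 CPM in WT lines. Oas3 was at 0.017, 1.14, 0.354 and 1.71 CPM in SLMAP3-/- lines and at 0.048, 0.019, 0.908 and 1.36 CPM in WT lines. SLMAP3-/- line 1 and WT lines 1 and 2 thus held at most 5 estimated counts of either gene, and the other lines 22 to 218. Oasl2 was at 10.1, 20.8, 36.5 and 67.8 CPM in SLMAP3-/- lines and at 3.24, 7.02, 73.8 and 90.2 CPM in WT lines. Oasl1, an inhibitor of Irf7 translation, was at 3.12, 8.73, 8.02 and 26.9 CPM in SLMAP3-/- lines and at 2.84, 4.32, 6.21 and 14.9 CPM in WT lines, with SLMAP3-/- line 4 above every WT line. Oas1a ran from 2.90 to 31.4 CPM and shares 68.7% of its 31-base stretches with Oas1g, so that its share of the reads is uncertain.

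Isg15 was the gene with the third highest level for its length, at 98.8 CPM per kb of exon on average, after Ifitm3 (366.6 CPM per kb) and Bst2 (124.2 CPM per kb). It was at 19.5, 59.6, 73.8 and 108.5 CPM in SLMAP3-/- lines and at 11.8, 23.1, 133.5 and 167.9 CPM in WT lines. Usp18, the protease that removes ISG15 from proteins and also dampens the type I receptor, was at 12.7, 31.02, 34.7 and 63.2 CPM in SLMAP3-/- lines and at 4.00, 13.0, 54.5 and 74.1 CPM in WT lines. The ligases Herc6 and Trim25 varied less, by 2.7-fold and 1.82-fold between the extreme lines. Parp9 and Dtx3l, whose proteins form a complex and whose genes overlap on opposite strands, ran from 19.5 to 96.1 CPM and from 18.1 to 60.5 CPM, and Parp14 from 8.60 to 52 CPM. The kinase gene Eif2ak2, which encodes PKR, ran from 76.8 to 206.7 CPM. Rsad2, which encodes viperin, and its neighbour Cmpk2 stayed low, at 0.744 to 5.68 CPM and 1.25 to 10.3 CPM, and SLMAP3-/- line 1 was the lowest line for both.

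The GTPases followed the common order, with the exception of Gbp2 and Irgm1. Gbp3, a guanylate-binding protein that acts on vacuoles of intracellular pathogens, was at 4.67, 11.4, 21.0 and 36.1 CPM in SLMAP3-/- lines and at 3.34, 4.26, 36.0 and 39.7 CPM in WT lines. Mx2, a dynamin-like antiviral protein, was at 1.28, 5.74, 5.56 and 15.8 CPM in SLMAP3-/- lines and at 0.951, 1.92, 14.2 and 16.1 CPM in WT lines. Mx1, which is defective in many inbred mouse strains, did not exceed 3.22 CPM. Igtp ran from 4.98 to 42.7 CPM and Gbp7 from 3.76 to 27.1 CPM, with WT line 1 the lowest for both. Gbp2 was at 9.31, 15.8, 8.55 and 26.8 CPM in SLMAP3-/- lines and at 2.42, 3.25, 6.89 and 15.6 CPM in WT lines, and only WT line 4 reached the range of the SLMAP3-/- lines. Irgm1 was at 28.7 CPM in SLMAP3-/- line 1, at 35.1 CPM in WT line 2 and between 64.2 and 104.6 CPM in the other 6 lines.

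The membrane restriction factors Ifitm3 and Bst2 had the highest levels for their length. Ifitm3, which blocks virus entry from endosomes, was at 133.1, 203.3, 317.6 and 212.2 CPM in SLMAP3-/- lines and at 114.8, 174, 412.8 and 420.7 CPM in WT lines. Bst2, which encodes tetherin and holds budding virus at the cell surface, was at 45.3, 83.5, 106.4 and 186.2 CPM in SLMAP3-/- lines and at 29.7, 66.9, 167.4 and 212.1 CPM in WT lines. WT line 4 was the highest and WT line 1 the lowest line for both genes. Of the other members, Ifi44 was at 3.27, 15.2, 24 and 16.7 CPM in SLMAP3-/- lines and at 3.66, 5.79, 65.8 and 78.2 CPM in WT lines, the most negative log2 fold change of the list at -1.37 ± 0.99 (SE, adjusted p = 1). Its direction rested on WT lines 3 and 4, since WT lines 1 and 2 were below 3 of the 4 SLMAP3-/- lines. Xaf1 and Rtp4 followed the common order, at 2.31 to 39 CPM and 7.06 to 75.8 CPM. Ifi27 was at 26.9 CPM in SLMAP3-/- line 1 and 24.8 CPM in WT line 1 and between 87.1 and 136.8 CPM in the other 6 lines.

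The immunoproteasome subunits Psmb8 and Psmb9 and the peptide transporter Tap1, which lie together on chromosome 17 and supply peptides to class I molecules, were high in SLMAP3-/- line 4 and differed in how far they followed the common order. Psmb8 was at 41.3, 14.8, 14.0 and 40.4 CPM in SLMAP3-/- lines and at 2.76, 7.28, 14.49 and 22.6 CPM in WT lines. SLMAP3-/- line 1, among the lowest lines for most members, was the highest for Psmb8. Psmb9 was at 4.80, 1.76, 3.68 and 7.40 CPM in SLMAP3-/- lines and at 0.564, 1.72, 4.18 and 5.32 CPM in WT lines. Tap1 was at 18.4, 16.5, 20.4 and 40.6 CPM in SLMAP3-/- lines and at 4.39, 11.9, 24.0 and 34.5 CPM in WT lines. Tap1 was closest to the common order, with its 4 highest levels in the lines SLMAP3-/- 3 and 4 and WT 3 and 4. All 3 genes were lowest in WT line 1, and their log2 fold changes were positive (0.36 to 1.23), none past the test.

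No member passed the test between SLMAP3-/- and WT MEFs. In edgeR, 0 of 44 passed an adjusted p of 0.05, against 0.00647% of all tested genes, and 0 had an unadjusted p under 0.05, against 1.81%. DESeq2 and limma-voom also called 0 members, with 1 and 0 at an unadjusted p under 0.05. The genotypes overlapped for every member, against 1.25% of all tested genes without overlap. The log2 fold change was above 0 for 16 members and below 0 for 28, against 49.5% of all tested genes above 0, and its median was -0.11 against -0.0014. The SE of a member had a median of 0.67 and reached 1.30 for Oas3, and the sign of the median turned with the fit and with single lines. The median was 0.16 with limma-voom, 0.30 without WT line 4, 0.15 without WT line 3 and 0.13 without SLMAP3-/- line 1, and it was -0.38 without WT line 1. The largest positive values were those of Psmb8 (1.23 ± 0.64 SE, unadjusted p = 0.0871), Gbp2 (1.10 ± 0.62) and Oasl1 (0.72 ± 0.70). Below 0, Ifi44 was followed by Dhx58 (-0.77 ± 0.86) and Ifit3b (-0.63 ± 0.91). By an exact two-sided permutation test of log2 CPM, which cannot go below p = 0.0286 with 4 lines against 4, the lowest p of a member was 0.114, for Gbp2. With this spread between lines a difference of the size of these errors was not detectable.

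**Figure D3:**
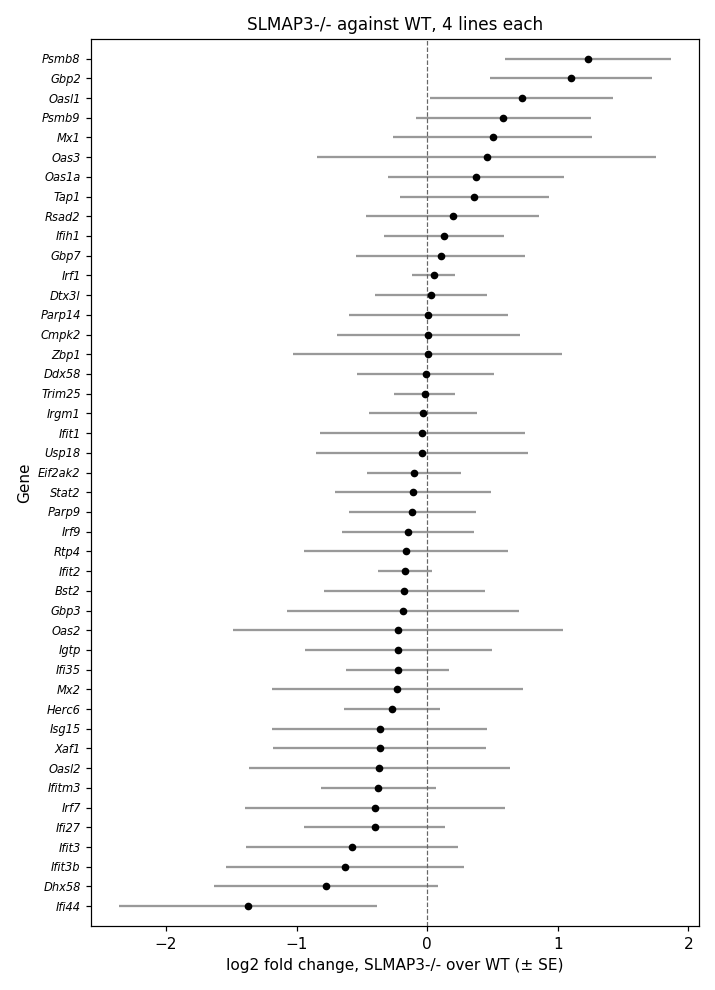
Log2 fold change of SLMAP3-/- over WT for the 44 genes from edgeR (points, 4 lines per genotype) with the SE (bars), sorted by value. The values run from -1.37 for Ifi44 to 1.23 for Psmb8, and the bars of most genes cross the dashed line at 0.

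The members moved together over the 8 lines. The 946 pairs of members had a median Pearson correlation of log2 CPM of 0.88 (quartiles 0.75 and 0.95), and 69.3% of them exceeded 0.8, against a median of -0.0001 and 2.2% over all pairs of tested genes. This is a description over 8 libraries that share their depth scaling, and the genes are not independent. Against the mean of the other members, Rtp4 had the highest correlation (0.999), followed by Irf7 (0.996), Isg15 (0.995) and Oasl2 (0.992). At the other end were Ifit2 (0.38), Psmb8 (0.55), Rsad2 (0.67), Psmb9 (0.73), Gbp2 (0.74) and Irgm1 (0.74). After the mean of each genotype was subtracted, the correlation of Rtp4 was 0.998, so the common movement lay within the genotypes. SLMAP3-/- line 1 had a mean standardized log2 level of -0.81, SLMAP3-/- line 2 of 0.071, SLMAP3-/- line 3 of 0.35 and SLMAP3-/- line 4 of 0.76. WT lines 1 to 4 had -1.33, -0.93, 0.81 and 1.07, and the widest gap between neighbouring lines, 0.88 of a range of 2.4, separated SLMAP3-/- line 1 from SLMAP3-/- line 2.

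**Figure D4:**
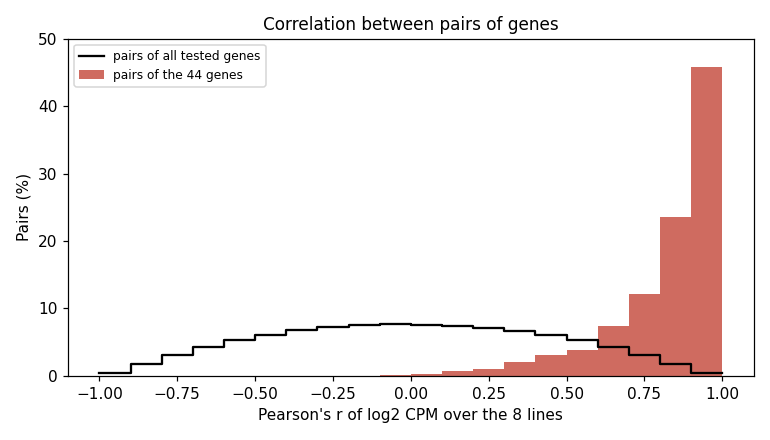
Distribution of Pearson's r of log2 CPM over the 8 lines for the 946 pairs of the 44 genes (red bars) and for all pairs of tested genes (black line), as the percent of pairs in bins of r. The pairs of members gather between 0.8 and 1, with a median of 0.88, while all pairs centre on 0.

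The sample labels number the libraries 1 to 8 and do not say what the number stands for. Numbers 1 and 2 are WT lines 1 and 2, numbers 3 to 6 are SLMAP3-/- lines 1 to 4, and numbers 7 and 8 are WT lines 3 and 4. The mean standardized level of the members was higher at each step from number 1 to number 8, a relation that was noticed after the values were seen. The p-values and calls of members for the number therefore describe this relation in the same lines and do not test it. Because the members move together, their calls are also not independent. The lines numbered 1 to 3 were the 3 lowest for 35 members (79.5%), against 3.93% of all tested genes, and those numbered 5 to 8 the 4 highest for 31 (70.5%), against 5.5%. In an edgeR fit of the number beside genotype, the slope was positive for all 44 members, with a median of 0.39 log2 units per step against 0.0038 over all tested genes. An adjusted p of 0.05 was passed by 27 members, all higher with the number, against 0.375% of all tested genes (58 of 15461), and 41 members had an unadjusted p under 0.05, against 8.88%. Lower with the number at that p were 0 members, against 9.68%, and 0 were called, against 0.0194%. Oasl2 (0.71 ± 0.04 SE, adjusted p = 0.00201), Igtp (0.48 ± 0.03, adjusted p = 0.00201) and Irf7 (0.70 ± 0.06, adjusted p = 0.0066) were among the 27 called. Irf1, Ifit2, Rsad2, Irgm1, Psmb8, Ifitm3, Tap1 and Trim25 were among those not called. Of all 44, only Ifit2, Rsad2 and Irgm1 had an unadjusted p above 0.05. Without WT line 1 no gene was called for the number, with 40 members at an unadjusted p under 0.05. The count of members called was 12 without WT line 2, 13 without WT line 3, 12 without WT line 4 and 17 without SLMAP3-/- line 2. Of all tested genes, 0.107%, 0.121%, 0.102% and 0.171% were called for the number in these fits. What the number marks, and its part in the spread of these genes, was not tested.

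Because genotype and number are laid out as WT, SLMAP3-/-, WT along the numbers, the genotypes were also compared within the lower and the upper numbers. Among numbers 1 to 4, which are WT lines 1 and 2 and SLMAP3-/- lines 1 and 2, all 42 members tested were higher in SLMAP3-/- (median log2 fold change 1.02), with 0 called (0% of the genes tested there) and 7 at an unadjusted p below 0.05, where 3.43% of all genes were. Among numbers 5 to 8, 37 of 44 members were lower in SLMAP3-/- (median -0.39), with 0 called, against 0.0126%, and 15 lower at an unadjusted p under 0.05, against 5.77%. In both sets of lines the genotypes occupy different numbers, so genotype and number cannot be told apart there. With the number as a covariate over all 8 lines, the median was 0.25, 36 members were above 0 and 8 below, and 0 members were called, with 5 at an unadjusted p under 0.05, against 2.6%.

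Upstream of the members, interferon transcripts were absent or few in every line. Of 21 interferon genes in the table, among them Ifnb1, Ifng, Ifnl2 and Ifnl3, 14 had no count in any line and 20 at most 2 counts. A count of 0 allows up to 0.0482 to 0.06 CPM in these libraries, for counting error only. The gene with more than 2 counts was Ifnz, with 7, 8, 4 and 0 estimated counts in SLMAP3-/- lines and 0, 0, 11 and 19 in WT lines. Like most members, it was lowest in WT lines 1 and 2 and highest in WT lines 3 and 4. Unlike them, it was at 0 in SLMAP3-/- line 4, and so few counts leave its order among the lines uncertain. The receptor genes for type I interferon were nearly level. Ifnar1 was at 83.0, 84.1, 88.0 and 76.5 CPM in SLMAP3-/- lines and at 81.8, 78.0, 82.3 and 81.1 CPM in WT lines, and Ifnar2 ran from 30.7 to 38.4 CPM. For type II interferon, Ifngr2 ran from 39.2 to 48.8 CPM and Ifngr1 from 37.8 to 62.8 CPM. Ifnlr1, the receptor for type III interferon, was low and had 16, 18, 54 and 62 counts in SLMAP3-/- lines and 9, 3, 71 and 66 in WT lines, close to the order of the members. The kinase genes Tyk2 (24.6 to 34.9 CPM), Jak2 (33.0 to 61.5 CPM) and Jak1 (322.9 to 705.8 CPM) and the sensing kinase Tbk1 (49.7 to 62.2 CPM) varied by 1.25-fold to 2.19-fold. Their correlations with the mean of the members were 0.78 for Jak2, 0.57 for Tyk2, 0.12 for Tbk1 and -0.12 for Jak1.

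Of the 52 genes of the induction and signalling pathway listed around the members, 29 passed the filter on low counts. None was called between genotypes in edgeR, DESeq2 or limma-voom, against 0.00647% of all tested genes in edgeR. In edgeR 1 of the 29 had an unadjusted p under 0.05, against 1.81% of all tested genes. That was Aim2, a sensor of cytosolic DNA, at 14.0, 1.66, 2.51 and 0.192 CPM in SLMAP3-/- lines and at 1.19, 0.677, 0.095 and 0.221 CPM in WT lines. It was carried by SLMAP3-/- line 1, and the genotypes overlapped (log2 fold change 3.06 ± 1.22 SE, adjusted p = 1). The correlation with the mean of the members was 0.97 for the RNA-editing enzyme Adar, 0.95 for the RNA sensor Tlr3, 0.92 for Ifnlr1 and 0.92 for the nuclease Trex1. Tlr3 and Adar were also the 2 genes of this list called for the label number, both higher with it, against 0.375% of all tested genes. Tlr3 was at 6.13, 6.60, 9.11 and 10.4 CPM in SLMAP3-/- lines and at 3.06, 3.52, 15.4 and 19.3 CPM in WT lines. Irf3, Mavs, Cgas, Tbk1 and Sting1, which carry the signal from sensors to the interferon genes, had correlations between -0.075 and 0.22. Other IRF, sensor, adaptor and kinase genes of the list were spread more widely. The correlation was 0.75 for Irf5, 0.59 for Ikbke, 0.53 for Irf2, 0.42 for Ticam1, -0.43 for Traf3 and -0.61 for Aim2. A cut of 0.8 was exceeded by 4 of the 29 genes (13.8%), against 3.13% of the tested genes outside the lists.

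**Figure D5:**
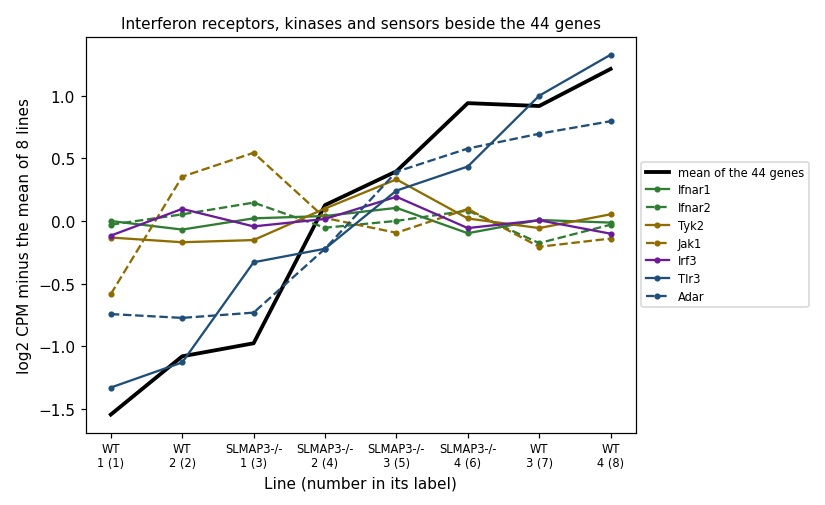
Log2 CPM minus the mean of the 8 lines (vertical axis) for interferon receptors, kinases, Irf3, Tlr3 and Adar, and for the mean of the 44 genes (thick black line), in the lines ordered by the number in their labels (horizontal axis). Tlr3 and Adar climb with the members, Ifnar1, Ifnar2, Tyk2 and Irf3 stay near 0, and Jak1 is lowest in WT line 1 and highest in SLMAP3-/- line 1.

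A second list of 89 interferon-stimulated genes outside the members held 73 tested genes. A correlation above 0.8 with the mean of the members was found for 45 of the 73 (61.6%), against 3.13% of the tested genes outside the lists. For a rise with the label number 59 had an unadjusted p under 0.05, against 8.88% of all tested genes, and 14 were called, against 0.375%. Between genotypes 0 were called in edgeR, DESeq2 and limma-voom, against 0.00647% of all tested genes in edgeR. In edgeR 1 had an unadjusted p under 0.05, against 1.81%, and the median log2 fold change was 0.03. Gbp9, a guanylate-binding protein, was at 4.12, 1.10, 1.93 and 2.28 CPM in SLMAP3-/- lines and at 0.403, 0, 0.833 and 0.544 CPM in WT lines (log2 fold change 2.40 ± 0.91 SE, unadjusted p = 0.0288, adjusted p = 1). Gbp9 shares its locus with Gbp4 and Gbp8 on the same strand, which leaves its reads uncertain. Slfn5 was at 1.06, 0.981, 1.24 and 1.48 CPM in SLMAP3-/- lines and at 0.645, 0.677, 0.908 and 0.918 CPM in WT lines. These were the 2 genes of the list whose genotypes did not overlap, against 1.25% of all tested genes, and neither passed the test.

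Of the 15290 tested genes outside the gene lists, 478 (3.13%) had a correlation above 0.8 with the mean of the members. The 8 genes with the highest values were Myh14 (0.981), BC023105 (0.979), AW011738 (0.979), Gm6548 (0.979), Mitd1 (0.979), Hpx (0.969), Vps51 (0.965) and Gm43197 (0.964), over 8 lines. Gm6548 was at 14.7, 18.4, 25.5 and 28.4 CPM in SLMAP3-/- lines and at 11.7, 13.3, 35.2 and 32.9 CPM in WT lines, a 3-fold range. Mitd1, a protein of the final step of cell division, ran from 15.0 to 28 CPM, and Vps51, a subunit of a tethering complex of the Golgi, from 24.9 to 30.0 CPM. BC023105 and Hpx were at 0 to 28 counts in every line and Myh14 at 6 to 97, so the places of these genes in this order rest on few reads.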

How the data were processed

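Stranded mRNA libraries, 1 per line, were sequenced for 8 immortalized MEF lines, 4 of either genotype. Per the labels and the methods of the study, the authors ran Salmon on GENCODE M25 transcripts (GRCm38), and the deposited estimated counts per gene are sums over transcripts scaled for length, not normalized between lines. A deposited table of the authors' own DESeq2 comparison, with fold changes and p-values, was not used.

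Counts were rounded, and genes were kept by filterByExpr (minimum count of 10). In R 4.3.3, edgeR 4.0.16 (TMM, glmQLFit, glmQLFTest) compared the genotypes without covariates, with Benjamini-Hochberg adjustment over all 15461 genes tested and a threshold of 0.05. Log2 CPM used a prior count of 2. Totals of 49879059 to 63322486 counts per line make counting error small beside the spread between lines, except for genes with few counts such as Oas3. The alternatives were DESeq2 1.42.0, limma-voom (limma 3.58.1), other size factors, other filters, the replicate number as a block, leaving out each line and, added after the values were seen, the number of the library in the labels. The fits were tested on simulated data.

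The members and gene lists were chosen with earlier results of these data known. Lists of pathway genes, further interferon-stimulated genes and cell type markers came from textbook knowledge. Values in every line were given for transcription factors, the 10 most variable members, the 3 largest fold changes in either direction, the 3 highest levels per kb and the pair Ifit3 and Ifit3b. The same was done for genes of the other lists with an unadjusted p under 0.05 or without overlap of the genotypes, and the 8 outside genes most like the members were named. Ddx58, Ifih1, Ifit1, Ifit2, Psmb9, Tap1, Tlr3, Irgm1, Ifi27 and Gm6548 were also given by line or in part after their values were seen. Gene positions, lengths and shared 31-base stretches are from GENCODE M21, and promoters from RefSeq, both on GRCm38. A pathway gene and the results that needed it are not reported here.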

Additional observations from a re-analysis of the deposited data

Results flagged for a closer look

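Among the 88 groups of 4 lines formed by the 44 members and both genotypes, the gap of 1 line to the nearest of the others exceeded Dixon's critical value as a share of the range of log2 CPM in 3 groups, while chance gives about 1 in 20 groups, or 4.4. All 3 were SLMAP3-/- line 1 as the lowest of its genotype. The ratio was 0.978 for Ifi27 (26.9 CPM against 87.1 to 89.4 CPM in the other SLMAP3-/- lines), 0.874 for Irgm1 (28.7 against 79.2 to 91.7 CPM) and 0.855 for Cmpk2 (1.25 against 5.41 to 6.92 CPM).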

How the results depend on the processing

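No member was called between genotypes under any alternative run, including the replicate block. No pathway gene or further interferon-stimulated gene was called either under the alternatives run on them, which leave out those on the label number, and Slmap stayed lower in SLMAP3-/- in all. The number of all genes called was 1 in edgeR, 11 with DESeq2, 0 with the replicate block, 0 in the lines numbered 1 to 4 and 2 in those numbered 5 to 8. For Slmap the log2 fold change was -1.84 with the block, -1.77 in numbers 1 to 4 and -1.90 in numbers 5 to 8, without passing the threshold, and -1.91 to -1.76 with 1 line left out, where it passed. The replicate numbers do not pair the lines, since the deviations of same-numbered lines correlated at -0.16, 0.06, 0.19 and -0.003, and the block gave a median log2 fold change of the members of 0.15. That median was -0.38 to 0.30 with 1 line left out and 1.02 in numbers 1 to 4, where only 42 members were tested. Signs of single members turned. With limma-voom the value was 0.044 for Ifit3b, 0.35 for Irf7, 0.082 for Irf9, 0.22 for Stat2, 0.15 for Isg15 and 0.53 for Oas2. With the replicate block it was 0.31 for Irf7, 0.077 for Irf9, 0.21 for Stat2, 0.14 for Isg15 and 0.38 for Oas2. With the label number as a covariate it was 0.094 for Ifit3b, 0.38 for Irf7, 0.084 for Irf9, 0.21 for Stat2, 0.19 for Isg15, 0.88 for Oas2 and 0.045 for Ifit3. In numbers 1 to 4 it was 0.97 for Ifi44, 1.09 for Dhx58, 1.28 for Ifit3b, 1.46 for Irf7, 0.61 for Irf9, 0.78 for Stat2, 1.18 for Isg15 and 1.14 for Ifit3, and in numbers 5 to 8 it was -0.028 for Irf1. With 1 line left out the ranges were -0.91 to 0.29 for Ifit3, -0.99 to 0.092 for Ifit3b, -0.066 to 0.15 for Irf1, -0.81 to 0.25 for Irf7, -0.43 to 0.17 for Irf9, -0.72 to 0.22 for Isg15, -0.93 to 0.57 for Oas2, -0.10 to 1.39 for Oasl1 and -0.43 to 0.26 for Stat2. Calls for the label number, 27 members in edgeR, which called 0.395% of all genes, were 39 with DESeq2, which called 7.12%. They were 26 with limma-voom, which called 0.395%, and 0 to 29 with 1 line left out. The fit with 29, without SLMAP3-/- line 4, called 2.35% of all genes. The median correlation between members was 0.87 to 0.91 with 1 line left out. The cause of the other changes was not tested.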

Other observations

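The antigen presentation genes of the second list differed in how closely they followed the members. With the mean of the members the Pearson correlation of log2 CPM over the 8 lines was 0.93 for Tapbp, between 0.84 and 0.88 for H2-T22, Psmb10, H2-Q4, H2-T23 and Nlrc5, and between 0.64 and 0.79 for H2-D1, Psme1, H2-K1, B2m, Psme2 and Tap2. The genes described here were chosen after their values were seen. H2-K1, a class I heavy chain, was at 272.7, 137.9, 235.7 and 722 CPM in SLMAP3-/- lines 1 to 4 and at 100.3, 166.3, 334.2 and 449.3 CPM in WT lines 1 to 4. B2m, the light chain of class I molecules, was at 549.5, 455.4, 442.2 and 1035 CPM in SLMAP3-/- lines and at 277.3, 470.6, 524.8 and 754.3 CPM in WT lines. SLMAP3-/- line 4 was the highest line for both. With Psmb8, the Pearson correlation of log2 CPM over the 8 lines was 0.94 for Tap2, 0.92 for Psmb9, 0.88 for H2-D1, 0.87 for Tap1, 0.85 for Gbp2, 0.85 for Nlrc5, the class I transactivator, 0.84 for B2m and 0.80 for H2-K1. Against the mean of the members outside this set, it was 0.59 for Tap2, 0.71 for Psmb9, 0.76 for H2-D1, 0.84 for Tap1, 0.72 for Gbp2, 0.82 for Nlrc5, 0.67 for B2m and 0.73 for H2-K1. For Tap1 and Nlrc5 these values lie close to those with Psmb8.

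The chemokine Cxcl10 was at 5.99, 24.1, 12.3 and 64.2 CPM in SLMAP3-/- lines and at 25.8, 15.1, 17.7 and 30.9 CPM in WT lines. Its correlation was 0.91 with the chemokine Ccl5, 0.78 with Rsad2 and 0.73 with Oasl1, and 0.47 with the mean of the members outside this set. WT line 1, the lowest line for 32 of the 44 members, was not among the 3 lowest lines for Cxcl10 and Rsad2. It was among the 3 lowest for Ccl5 and was the lowest for Oasl1.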
